A study of Mus musculus with 10 samples.

Results

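The genes described here are 32 named genes of macrophages, monocytes, Langerhans cells, dendritic cells and the MHC class II pathway, out of 55487 gene identifiers measured in mouse skin. They were taken by symbol, through each symbol's Ensembl identifier. They fall into 12 macrophage and monocyte genes (Adgre1, Csf1r, Cd68, Lyz2, Mrc1, Cd163, Timd4, Cd14, Fcgr1, Ccr2, Ly6c2 and Cx3cr1), 3 complement C1q genes (C1qa, C1qb and C1qc) and 2 signalling adaptors (Fcer1g and Tyrobp). The others are 7 Langerhans and dendritic cell genes (Itgax, Cd207, Xcr1, Clec9a, Cd86, Cd83 and Ccr7) and 8 genes of MHC class II antigen presentation (H2-Aa, H2-Ab1, H2-Eb1, H2-DMa, H2-DMb1, Cd74, Ciita and Ctss).

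Skin RNA was sequenced from 10 mice, 5 wild type (WT) and 5 of a genotype that the labels write as Hamp1-KI ker, called KI here, in a series about skin that overexpresses hepcidin. Hepcidin, the product of Hamp, is a peptide hormone that lowers iron export from cells by acting on ferroportin. The labels do not spell out "ker", and the promoter or cell type that drives the allele, the strain, the age and the body site are absent from the labels and notes used here. Animal titles carry the prefix EAS37 (WT 1, 2 and 3, KI 1 and 2) or EAS42 (WT 4 and 5, KI 3, 4 and 5), whose meaning is not given either.

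Langerhans cells are macrophage-related antigen-presenting cells that live in the epidermis, while macrophages and dendritic cells of several kinds live in the dermis, some seeded before birth and some replaced from blood monocytes. Monocytes enter tissue through the chemokine receptor CCR2, and macrophages depend on the receptor CSF1R, which binds CSF1 and, in the epidermis, IL34. Antigen-presenting cells load peptides onto MHC class II dimers. The invariant chain CD74 fills the groove of a new dimer, and cathepsin S cuts that chain down. The H2-DM dimer then exchanges the remaining fragment for peptide. The coactivator CIITA switches on the genes of the class II chains, CD74 and H2-DM. Macrophages also recycle iron and are a main site of ferroportin.

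Libraries held between 18.96 and 26.43 M expected counts, and every one of the 32 genes passed the filter on low counts. Hamp stood between 1.86 and 3.33 CPM (counts scaled to library size) in WT and between 85.6 and 169 CPM in KI libraries. Krt5, the keratin of basal keratinocytes, lay between 4723 and 6742 CPM in WT and between 4553 and 7384 CPM in KI libraries, so epidermis was present in each. Other cell types differed between the groups: 6 of 7 pan leukocyte markers and 6 of 10 T cell markers were higher in KI and none lower. So were all 4 tested of 8 neutrophil markers, while 8 of 8 Schwann cell, 7 of 8 endothelial, 5 of 10 adipocyte and 4 of 8 fibroblast markers were lower and none higher. All 12 skeletal muscle markers were below 0 (median log2 fold change -1.31), of which 1 passed the test. Their summed level was 28931 to 50865 CPM in WT and 3009 to 31484 CPM in KI libraries, with overlap. In bulk skin, fewer cells of a type and less RNA per cell cannot be told apart, and neither can more cells and more RNA per cell.

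Of the 8 genes of MHC class II presentation 6 were higher in KI skin, as were the chemokine receptors Ccr2 and Cx3cr1. Csf1r, Adgre1, Cd68, Lyz2, Mrc1, Cd163 and the monocyte marker Ly6c2 did not pass the test. Of the 32 genes, 14 rose and none fell (edgeR quasi-likelihood test, Benjamini-Hochberg adjusted p under 0.05 over 17321 genes), and 18 did not pass in either direction. The count of 14 became 2 with each library's skeletal muscle level as a covariate, 5 with title prefix EAS37 alone and 8 with EAS42 alone. In these fits 1.73%, 15% and 6.68% of all genes were higher. In the test without these changes 15.6% of all genes tested were higher and 15.3% lower, so 43.75% higher compares with 15.6%. The 32 genes were chosen with earlier results of these data known, so this comparison is not a test. At an unadjusted p under 0.05 there were 17 higher and 0 lower, against 21.0% and 22.3% of all genes. With DESeq2 or limma-voom 0 were lower as well, while these called 18.9% and 16.5% of all genes lower at an adjusted p under 0.05. The median log2 fold change of the 32 was 0.58, against -0.01 over all genes tested, and 29 of the 32 were above 0, against 49.1% of all genes. Every KI library exceeded every WT library for 5 genes (Ccr2, Cx3cr1, Fcer1g, Itgax and Ctss), a pattern shown by 10.7% of all genes tested. None of the 32 lay lower in every KI library, against 9.65% of all genes.

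**Figure D1:**
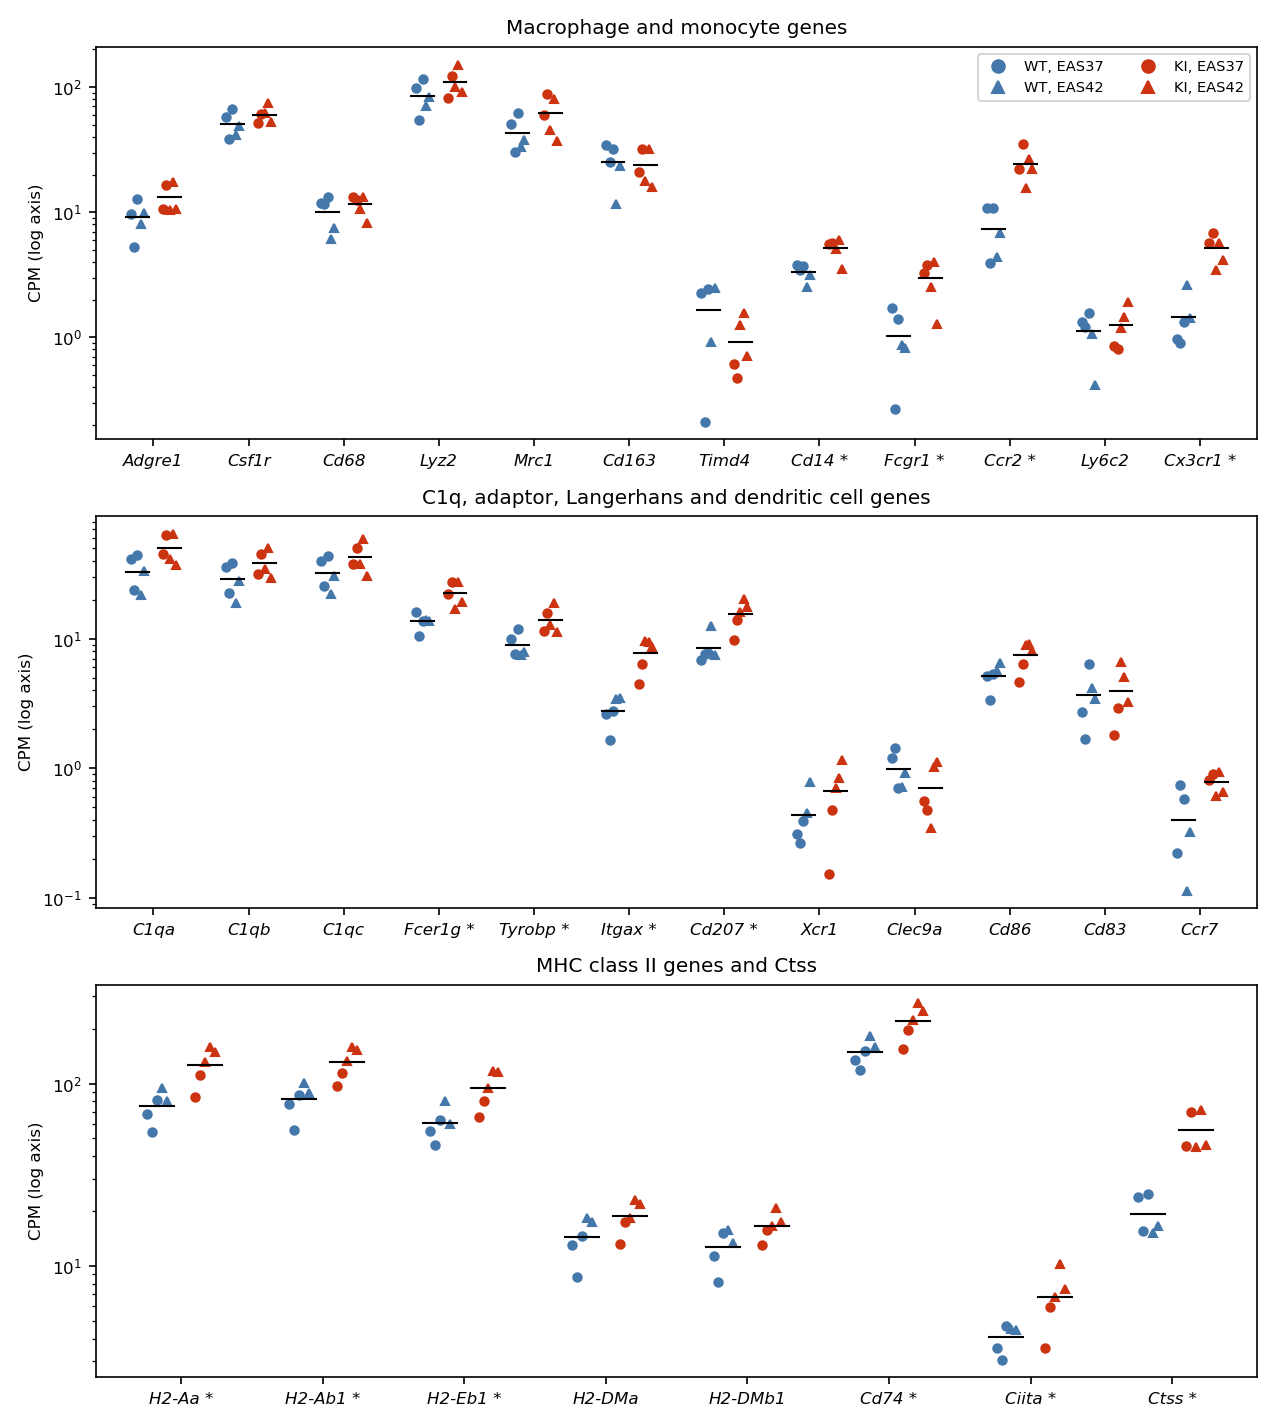
CPM of each of the 32 genes on a log axis in the 5 WT (blue) and 5 KI (red) libraries, with circles for title prefix EAS37, triangles for EAS42, bars at the group means and asterisks at the 14 genes that passed the test. WT and KI points are apart for Ccr2, Cx3cr1, Fcer1g, Itgax and Ctss, and overlap for the other 27 genes.

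Skin levels of these genes spanned a wide range. By TPM, the abundance deposited by the authors that is scaled to transcript length, Cd74 was the most abundant in WT skin at 186 ± 27.9 TPM (SD, n = 5). After it came H2-Ab1 at 135 ± 26.4 TPM, H2-Aa at 116 ± 21.5 TPM, Lyz2 at 101 ± 29.9 TPM and H2-Eb1 at 89.0 ± 18.1 TPM, and from H2-Ab1 down each of these was within 1 SD of the next, while Cd74 was further from H2-Ab1. The C1q genes followed at 42.9 to 51.9 TPM, and the macrophage receptors Mrc1, Csf1r and Cd163 stood at 17.2, 16.2 and 10.2 TPM. Cd207, the Langerhans cell lectin, averaged 8.502 TPM. At the bottom were the chemokine receptors Cx3cr1 at 0.538 TPM, Ccr7 at 0.298 TPM and Xcr1 at 0.140 TPM, with Clec9a between them at 0.438 TPM. The KI order had the same first gene, with Cd74 at 261 ± 70.4 TPM.

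Among the 12 macrophage and monocyte genes, the chemokine receptors Ccr2 and Cx3cr1, the high affinity IgG receptor Fcgr1 and the lipopolysaccharide coreceptor Cd14 rose, and none fell. The median log2 fold change of the 12 was 0.45. Ccr2 stood at 10.9, 3.92, 10.7, 4.36 and 6.79 CPM in WT libraries 1 to 5 and at 22.0, 35.2, 15.7, 26.5 and 21.9 CPM in KI libraries 1 to 5. The lowest KI library was thus above the highest WT library, and the fitted difference was 3.30-fold (log2 fold change 1.72 ± 0.33 SE; edgeR adjusted p = 0.00452). Ccr2 (ENSMUSG00000049103) spans chromosome 9, 124101950 to 124113557, plus strand (GRCm38).

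Cx3cr1, the receptor for the membrane-bound chemokine fractalkine on monocytes and some macrophages, was the member with the largest fold change. It stood at 0.971, 0.900, 1.32, 2.62 and 1.42 CPM in WT libraries 1 to 5 and at 5.65, 6.81, 3.44, 5.67 and 4.16 CPM in KI libraries 1 to 5, with no overlap. The difference was 3.52-fold (1.82 ± 0.31; edgeR adjusted p = 0.00273), and permuting its log2 CPM over 252 assignments gave an exact two-sided p of 0.00794, the smallest possible. Any gene without overlap gets that value, so here and for Itgax and Ctss it adds nothing to the separation of the groups. The annotated span of Cx3cr1 on the minus strand of chromosome 9 (119901616 to 120069879) overlaps other genes, among them Gorasp1, Csrnp1 and Xirp1 on its own strand and Wdr48 on the other. Those 4 held between 6009 and 21074 counts over all libraries against 723 for Cx3cr1, so its level carries some uncertainty. In the same libraries 6 of 10 T cell markers rose, and the part of T cells in the Ccr2 and Cx3cr1 differences was not tested.

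Fcgr1 stood at 1.72, 0.265, 1.40, 0.872 and 0.825 CPM in WT and at 3.28, 3.76, 2.53, 3.98 and 1.27 CPM in KI libraries 1 to 5. KI 5 lay inside the WT range and the other 4 KI libraries lay above it. The difference was 2.88-fold (1.53 ± 0.43; edgeR adjusted p = 0.0226), but it rested on 121 WT and 321 KI counts in all, and with offsets from the deposited effective lengths it was 1.09 and no longer passed (adjusted p = 0.131). Cd14 stood at 3.80, 3.44, 3.74, 2.502 and 3.12 CPM in WT and at 5.60, 5.71, 5.06, 6.01 and 3.497 CPM in KI libraries 1 to 5. Here too only KI 5 fell within the WT range. The Cd14 difference was 1.56-fold (0.64 ± 0.19; edgeR adjusted p = 0.0246).

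The general macrophage markers did not pass. Csf1r, the receptor macrophages need to survive, stood at 58.2, 38.7, 66.4, 41.5 and 49.0 CPM in WT and at 51.2, 60.5, 62.1, 74.1 and 53.0 CPM in KI libraries 1 to 5. The groups overlapped over most of their range, with a log2 fold change of 0.25 ± 0.16 (edgeR adjusted p = 0.247). Cd163, the scavenger receptor for hemoglobin and haptoglobin on resident macrophages, stood at 34.6, 24.98, 31.9, 11.7 and 23.4 CPM in WT and at 20.8, 31.8, 17.8, 32.1 and 16.0 CPM in KI libraries 1 to 5. Its log2 fold change was -0.09 ± 0.30 (edgeR adjusted p = 0.834), and its sign turned with EAS42 alone. Both genes lie close to 0 in the plot of fold changes.

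The other 6 macrophage and monocyte genes had log2 fold changes between -0.83 and 0.53, with overlapping groups. The macrophage adhesion receptor Adgre1 (F4/80) averaged 9.09 ± 2.72 CPM in WT and 13.1 ± 3.60 CPM in KI, with an adjusted p of 0.115 by edgeR. Lysosomal Cd68 averaged 10.1 and 11.5 CPM and the lysozyme gene Lyz2 84.6 and 109 CPM. The mannose receptor Mrc1 averaged 43.0 ± 13.3 and 62.0 ± 21.7 CPM (edgeR adjusted p = 0.159), and passed only with offsets from effective lengths (log2 fold change 0.74, adjusted p = 0.0200). Timd4, a phosphatidylserine receptor of long-lived resident macrophages, averaged 1.65 ± 1.03 and 0.924 ± 0.468 CPM, with an adjusted p of 0.274 by edgeR. Ly6c2, a marker of classical monocytes with a close copy in Ly6c1, averaged 1.11 ± 0.432 and 1.24 ± 0.460 CPM. By TPM the gap was wider, at 0.706 ± 0.354 in WT and 1.29 ± 0.184 in KI, but no alternative called Ly6c2. Lyz2 has a close copy as well, Lyz1, and how the counting split such reads is not stated.

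**Figure D2:**
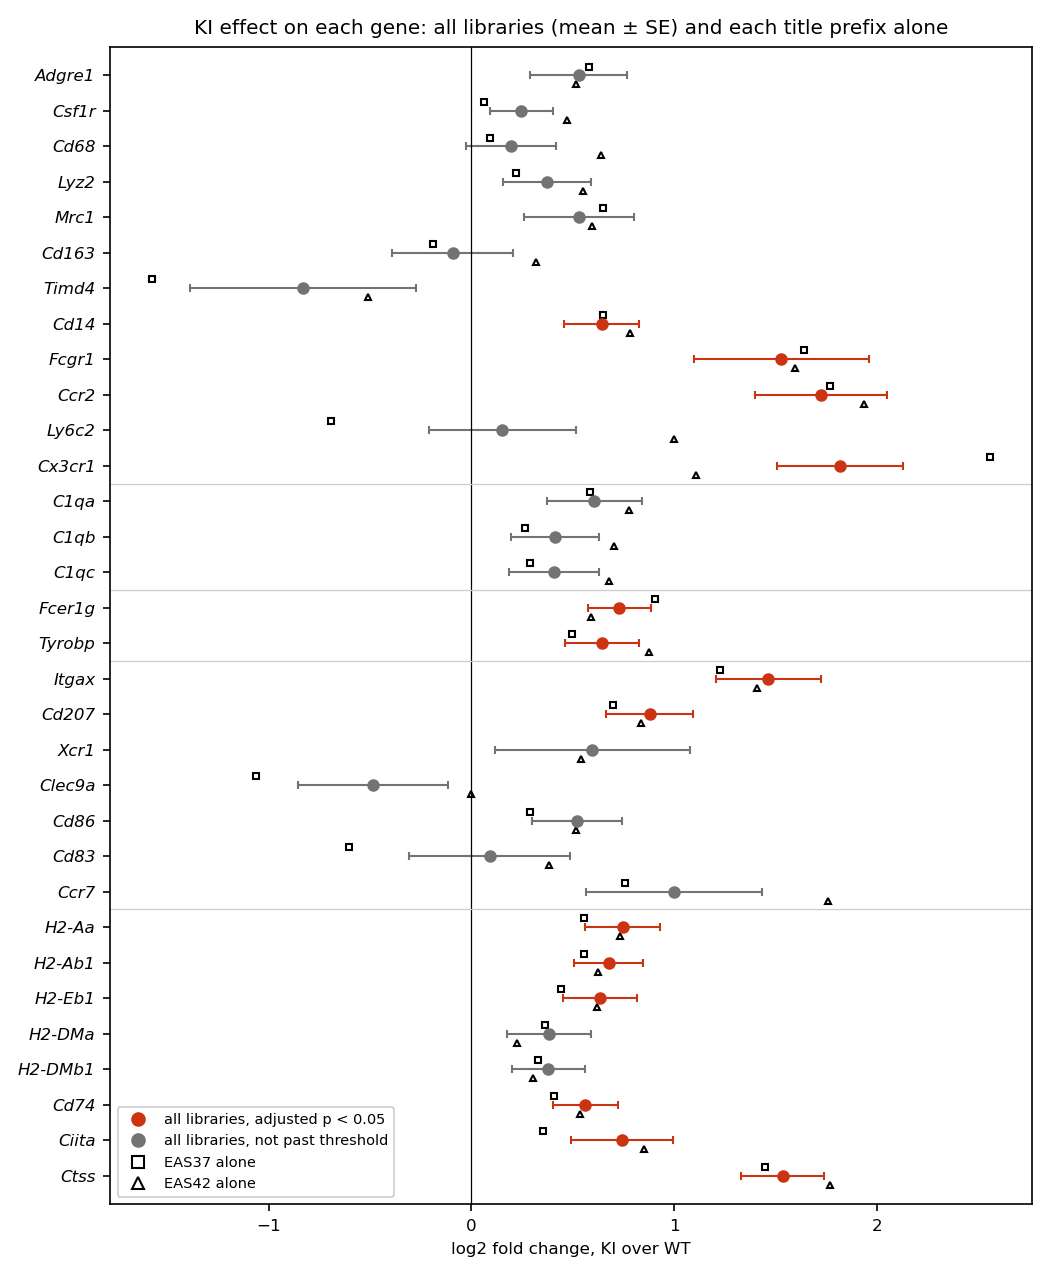
Log2 fold change of KI over WT for each of the 32 genes, as the fitted value with its SE over all 10 libraries (red past the threshold, grey not) and as the value with title prefix EAS37 alone (squares) or EAS42 alone (triangles). Ctss, Ccr2 and Itgax sit far to the right with both prefixes, Cx3cr1 is at 2.56 with EAS37 and 1.11 with EAS42, and Ly6c2 lies on opposite sides of 0; Xcr1 has no EAS37 value because it did not pass the filter there.

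Some ligands of these receptors rose as well. Of 12 ligand genes 4 were higher, 0 lower and 8 not past the threshold, with a median log2 fold change of 0.48. Ccl2, the main ligand of CCR2, went from 1.37 ± 1.26 to 4.64 ± 1.92 CPM (1.74 ± 0.57; edgeR adjusted p = 0.0399). Ccl8, another chemokine for monocytes, went from 9.85 ± 6.06 to 27.0 ± 8.77 CPM (1.45 ± 0.40; adjusted p = 0.0213), with every KI library above every WT library. Fractalkine, Cx3cl1, went from 10.02 ± 2.26 to 14.0 ± 0.726 CPM (0.48 ± 0.15; adjusted p = 0.0327), likewise without overlap. Ccl2 lost its call under 12 of 23 alternatives, 8 of the 10 fits without 1 library among them, and Cx3cl1 under 8 of 23, 5 of those 10 among them. The CCR7 ligand Ccl19 sat at the threshold (1.44 ± 0.125 to 2.53 ± 1.07 CPM; adjusted p = 0.0499) and lost its call under 17 of 22 alternatives. The 2 ligands of CSF1R, Csf1 at 34.9 and 36.3 CPM and Il34 at 38.5 and 28.4 CPM, did not pass; they are named outside the rule for named genes, after their values were seen.

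A further 24 genes of resident macrophages were split, with 6 higher, 2 lower and 13 not past the threshold among 21 tested. The lipid receptor Trem2 had the smallest p of them and went from 0.743 ± 0.138 to 3.21 ± 0.601 CPM (2.10 ± 0.21; edgeR adjusted p = 2.17e-04). The inhibitory IgG receptor Fcgr2b went from 17.4 ± 2.29 to 38.2 ± 8.14 CPM (1.13 ± 0.15; adjusted p = 7.36e-04), and Ms4a6c from 3.62 ± 0.947 to 7.76 ± 2.33 CPM. Gas6, which bridges dying cells to the engulfment receptors AXL and MERTK, went the other way, from 265 ± 28.2 to 151 ± 26.0 CPM (-0.81 ± 0.12; adjusted p = 0.00156). Groups did not overlap for any of these 4 genes. Outside the rule for named genes and chosen after its value was seen, Mertk was the other gene that fell (44.6 to 19.3 CPM; -1.20 ± 0.27; edgeR adjusted p = 0.00970). Gas6 and Mertk are also expressed by cells other than macrophages, and endothelial and fibroblast markers were lower in the same libraries. Their part in these falls was not tested.

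None of the 3 complement C1q genes passed. They lie side by side on chromosome 4 and encode the chains of the C1q molecule, which macrophages and dendritic cells make and which starts the classical complement pathway. C1qa stood at 41.4, 23.7, 44.4, 21.8 and 33.2 CPM in WT and at 44.7, 63.1, 41.1, 64.3 and 37.0 CPM in KI libraries 1 to 5. C1qb ranked the WT libraries in the same order, at 35.6, 22.5, 38.6, 18.8 and 27.8 CPM in WT and at 31.6, 44.8, 34.6, 50.3 and 29.3 CPM in KI libraries. For both, KI 2 and KI 4 were above every WT library. The other 3 KI libraries lay within the WT range, except that KI 1 was just above it for C1qa. Log2 fold changes were 0.60 ± 0.23 for C1qa (edgeR adjusted p = 0.0716), 0.41 ± 0.22 for C1qb (0.172) and 0.41 ± 0.22 for C1qc (0.186). C1qa passed under 4 of 23 alternatives, among them the title prefix as a block (adjusted p = 0.0450). Within each library the TPM ratio of C1qa to C1qc was 1.10 to 1.28 in WT and 1.29 to 1.501 in KI libraries, so these groups did not overlap. The ratio of C1qa to C1qb did overlap, at 1.11 to 1.26 in WT and 1.25 to 1.49 in KI libraries.

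Both signalling adaptors rose. Fcer1g and Tyrobp encode small membrane proteins that carry the signal of activating receptors, Fc receptors among them, into myeloid, mast and natural killer cells. Fcer1g stood at 16.1, 10.4, 13.6, 14.0 and 13.7 CPM in WT and at 22.2, 27.2, 16.96, 27.2 and 19.0 CPM in KI libraries 1 to 5, with no overlap (1.66-fold; 0.73 ± 0.16; edgeR adjusted p = 0.00713). Tyrobp stood at 9.93, 7.62, 11.8, 7.51 and 7.93 CPM in WT and at 11.4, 15.8, 12.8, 18.8 and 11.3 CPM in KI libraries 1 to 5. The lowest KI values of Tyrobp were just under WT 3, and its difference was 1.56-fold (0.64 ± 0.18; edgeR adjusted p = 0.0230). None of 7 tested mast cell markers passed in either direction (median log2 fold change 0.21), and Cma1, a mast cell chymase, averaged 19.6 and 23.6 CPM.

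Among the 7 Langerhans and dendritic cell genes Itgax and Cd207 rose, none fell, and the median log2 fold change was 0.60. Itgax encodes CD11c, an integrin of dendritic cells and of some macrophages. It stood at 2.60, 1.64, 2.76, 3.41 and 3.49 CPM in WT libraries 1 to 5 and at 4.44, 6.38, 9.59, 9.35 and 8.67 CPM in KI libraries 1 to 5. All KI libraries were above all WT libraries, by 2.75-fold in the fit (1.46 ± 0.26; edgeR adjusted p = 0.00312; exact two-sided permutation p = 0.00794). Itgax (ENSMUSG00000030789; chromosome 7, 128129547 to 128150657, plus strand) kept its call under all 23 alternatives, including a model that takes up each library's skeletal muscle level (1.77 ± 0.32; adjusted p = 0.0198).

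Cd207 encodes langerin, the lectin that forms Birbeck granules in Langerhans cells and is also found on some dermal dendritic cells. It stood at 6.88, 7.62, 7.70, 12.5 and 7.43 CPM in WT and at 9.79, 13.8, 15.9, 20.3 and 17.6 CPM in KI libraries 1 to 5. WT 4 was high for its group and above KI 1, and the other WT libraries were all below every KI library. The difference was 1.84-fold (0.88 ± 0.22; edgeR adjusted p = 0.0127). Cd207 rose less than Itgax: the TPM ratio of Cd207 to Itgax was 6.07 to 13.3 in WT and 3.66 to 5.93 in KI libraries, without overlap.

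The other 5 genes of this set did not pass. Cd86, a costimulatory ligand for T cells, stood at 5.16, 3.33, 5.29, 5.61 and 6.47 CPM in WT and at 4.64, 6.42, 8.94, 9.06 and 8.06 CPM in KI libraries 1 to 5. The EAS42 KI libraries (KI 3, 4 and 5) were above all WT libraries and the EAS37 KI libraries were not (0.52 ± 0.22; edgeR adjusted p = 0.0938). Ccr7, which takes dendritic cells to the lymph node, stood at 0.221, 0.741, 0.584, 0.114 and 0.321 CPM in WT and at 0.807, 0.904, 0.610, 0.931 and 0.659 CPM in KI libraries 1 to 5, with an adjusted p of 0.101. It rested on 44 WT and 84 KI counts in all. The maturation marker Cd83 averaged 3.68 ± 1.78 and 3.93 ± 1.89 CPM. Xcr1 and Clec9a, both markers of type 1 conventional dendritic cells, averaged 0.439 and 0.667 CPM and 0.992 and 0.702 CPM. Their log2 fold changes of 0.60 ± 0.48 and -0.49 ± 0.37 had opposite signs, on 51 and 111 WT counts. Neither passed, and at counts this low the recovery of a difference was not tested. Clec9a also overlaps Clec1b, which held 32 counts.

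Other Langerhans and dendritic cell genes went both ways, with 8 higher, 7 lower and 8 not past the threshold of 23 tested. The endocytic receptor Ly75 (DEC-205) went from 1.28 ± 0.106 to 4.08 ± 1.29 CPM (1.66 ± 0.23; edgeR adjusted p = 9.79e-04). Fscn1, the actin bundler of mature dendritic cells, went from 29.7 ± 5.59 to 71.9 ± 23.7 CPM, and the costimulatory receptor Cd40 from 0.907 ± 0.293 to 2.16 ± 0.351 CPM. The calcium channel subunit Cacnb3 fell from 57.8 ± 6.49 to 38.4 ± 5.39 CPM. Named after their values were seen, the others that rose were Cd80, Ccl22, Epcam, Itgae and Irf8, and the others that fell were Id2, Cd24a, Batf3, Irf4, Mgl2 and Dpp4. Batf3 and Irf4 encode transcription factors of type 1 and type 2 conventional dendritic cells. Epcam, Fscn1, Cd24a and Id2 are also expressed by keratinocytes, of whose 8 markers 3 rose, so these genes do not report on dendritic cells alone. Fibroblast markers (4 of 8) and Schwann cell markers (8 of 8) were lower in the same libraries. The part of other cell types in the falls was not tested.

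Of the 8 MHC class II genes 6 rose and none fell, with a median log2 fold change of 0.65. H2-Aa and H2-Ab1, the alpha and beta chains of the same dimer, had log2 fold changes of 0.75 and 0.68. H2-Eb1, Cd74 and Ciita were at 0.63, 0.56 and 0.74, and Ctss stood apart at 1.53. H2-DMa and H2-DMb1 did not pass, at 0.38 each.

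Promoters of class II genes are known for a conserved pair of elements, the X box and the Y box, of which the Y box holds an inverted CCAAT sequence. They are shown here for H2-Aa and H2-Eb1, which both rose. Windows of 250 bases before to 50 after the start were given by RefSeq (GRCm38.p6) for 21 of the 32 genes, among them 5 of the 8 class II genes. The 2 H2 stretches run 5′ to 3′ on each gene's strand, with capitals at GNAACT (N is any base), as in an X box, and at GATTGG, the inverted CCAAT. In Ctss, capitals mark GAAA, any 2 bases and GAAA again, a repeat of the kind that interferon regulatory factors bind. The stretches are chr17:34287852-34287919 (minus strand) for H2-Aa, chr17:34305761-34305827 (plus strand) for H2-Eb1 and chr3:95526735-95526774 (plus strand) for Ctss.
H2-Aa: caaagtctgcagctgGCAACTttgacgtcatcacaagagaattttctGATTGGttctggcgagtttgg
H2-Eb1: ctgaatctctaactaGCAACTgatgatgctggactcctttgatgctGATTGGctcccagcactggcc
Ctss: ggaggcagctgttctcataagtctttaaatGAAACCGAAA

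The pair begins 81 bases before the start of H2-Aa and 91 bases before that of H2-Eb1, and its parts are 26 and 25 bases apart. Searched on both strands, GNAACT followed by GATTGG at a distance of 15 to 40 bases occurred in 0.399% of 32851 promoter windows and in 3 of the 5 class II windows, H2-Aa, H2-Eb1 and H2-DMb1. Of these 3 genes H2-DMb1 did not pass the test. GATTGG alone was in 16.1% of windows and in 7 of the 21, and GNAACT alone in 42.8% and 16 of the 21. That repeat was in 3.44% of all windows and, of the 21, in Ctss alone, where it ends 12 bases before the start. The PU.1-type sequence GAGGAAGT was in 3.20% of all windows and in C1qc, Ctss and Ly6c2. The motifs were chosen with these promoters in view, and a match does not show that a factor binds there.

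H2-Aa (ENSMUSG00000036594; chromosome 17, 34282744 to 34287823, minus strand) stood at 68.0, 54.4, 81.6, 94.7 and 79.7 CPM in WT and at 84.7, 112, 130.5, 159 and 149 CPM in KI libraries 1 to 5. Its partner H2-Ab1 stood at 77.0, 55.9, 86.4, 101 and 88.9 CPM in WT and at 96.9, 114, 132, 158 and 152 CPM in KI libraries. For both genes KI 1 lay below WT 4 and the other 4 KI libraries were above every WT library. Fitted differences were 1.68-fold for H2-Aa (0.75 ± 0.19; edgeR adjusted p = 0.0136) and 1.597-fold for H2-Ab1 (0.68 ± 0.17; adjusted p = 0.0140). The TPM ratio of H2-Aa to H2-Ab1 stayed between 0.808 and 0.965 in all 10 libraries, with overlapping groups.

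H2-Eb1, the beta chain of the second class II dimer, stood at 54.7, 46.0, 62.8, 80.3 and 60.3 CPM in WT and at 65.5, 80.0, 94.8, 116 and 115 CPM in KI libraries 1 to 5 (1.55-fold; 0.63 ± 0.18; edgeR adjusted p = 0.0247). Cd74 stood at 135, 118, 151, 183 and 158 CPM in WT and at 155, 197, 222, 277 and 249 CPM in KI libraries (1.48-fold; 0.56 ± 0.16; adjusted p = 0.0226). In both genes WT 4 was the highest WT library and KI 1 the lowest KI library. Over the 8 genes of the set, WT 4 was the highest WT library for 6 and WT 2 the lowest for 7, while KI 4 was the highest KI library for all 8 and KI 1 the lowest for 7. Ctss was an exception, with WT 4 its lowest WT library and KI 3 its lowest KI library. The libraries ranked much alike for the other genes of the set, so these genes are not independent measurements.

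The coactivator Ciita stood at 3.57, 3.07, 4.71, 4.51 and 4.45 CPM in WT and at 3.53, 5.996, 6.76, 10.2 and 7.45 CPM in KI libraries 1 to 5. KI 1 lay inside the WT range and the other KI libraries above it (1.67-fold; 0.74 ± 0.25; edgeR adjusted p = 0.0448). This call lay close to the threshold and was lost under 16 of 23 alternatives, limma-voom and 9 of the 10 fits without 1 library among them, with adjusted p between 0.0135 and 0.444. Ciita overlaps Dexi on the other strand, which held 5040 counts against 1216. The TPM ratio of Ciita to H2-Ab1 overlapped between the groups (0.00720 to 0.00952 in WT and 0.00598 to 0.0108 in KI libraries).

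Ctss, cathepsin S, had the smallest p of the 32 genes. It stood at 23.8, 15.6, 24.9, 15.2 and 16.5 CPM in WT and at 45.4, 69.7, 44.6, 71.8 and 46.1 CPM in KI libraries 1 to 5. The lowest KI library was well above the highest WT library, and the difference was 2.89-fold (1.53 ± 0.20; edgeR adjusted p = 8.60e-04; exact two-sided permutation p = 0.00794). Ctss (ENSMUSG00000038642) spans chromosome 3, 95526786 to 95556403, plus strand. It kept its call under all 23 alternatives, including the model with the skeletal muscle level (1.11 ± 0.21; adjusted p = 0.0264). In that model Ctss and Itgax were the only ones of the 32 genes that passed, against 1.73% of all genes higher.

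The genes of the peptide editor H2-DM did not pass. H2-DMa stood at 12.97, 8.68, 14.7, 18.2 and 17.5 CPM in WT and at 13.3, 17.5, 18.3, 22.9 and 22.0 CPM in KI libraries 1 to 5 (0.38 ± 0.21; edgeR adjusted p = 0.179). H2-DMb1 stood at 11.4, 8.20, 15.2, 15.8 and 13.3 CPM in WT and at 13.02, 15.7, 16.5, 20.7 and 17.3 CPM in KI libraries (0.38 ± 0.18; adjusted p = 0.132). Both overlapped between the groups. Relative to the dimer it serves, however, the TPM ratio of H2-DMa to H2-Ab1 was 0.140 to 0.168 in WT and 0.112 to 0.133 in KI libraries, without overlap. H2-DMa overlaps Brd2 on the other strand, which held 42057 counts against 3724, and H2-DMb1 has a close copy in H2-DMb2. How strand was treated in the counting is not stated either.

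Other genes of the class II pathway mostly did not pass, with 3 higher, 1 lower and 10 not past the threshold of 14 tested. Cathepsin L, Ctsl, went from 218 ± 37.4 to 539 ± 249 CPM (1.30 ± 0.31; edgeR adjusted p = 0.0122), and cathepsin D, Ctsd, from 691 ± 161 to 1069 ± 210.4 CPM. Both proteases are made by keratinocytes too. Cd4, the T cell coreceptor for class II, went from 0.589 ± 0.221 to 2.14 ± 0.679 CPM (1.84 ± 0.33; adjusted p = 0.00312), beside T cell markers of which 6 of 10 rose. The ubiquitin ligase March8, which removes class II from the surface, fell slightly, from 73.8 ± 4.58 to 62.5 ± 2.91 CPM (-0.24 ± 0.06; adjusted p = 0.0185). Named after their values were seen, the 3 subunits of RFX, the factor that binds the X box, had log2 fold changes between -0.09 and 0.13 and did not pass.

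MHC class I genes, which nearly all cells express, had small fold changes. Of 12 genes 3 rose (25%, against 15.6% of all genes) and none fell, with a median log2 fold change of 0.18. Their summed level was 1758 to 2623 CPM in WT and 2642 to 2782 CPM in KI libraries, without overlap. H2-T23 went from 89.5 ± 9.69 to 118 ± 7.48 CPM, the class I coactivator Nlrc5 from 64.4 ± 12.02 to 88.1 ± 3.74 CPM and H2-D1 from 573 ± 76.2 to 719.99 ± 28.2 CPM, each with all KI libraries above all WT libraries. The proteasome subunit Psmb10 averaged 14.2 and 17.7 CPM and did not pass (edgeR adjusted p = 0.108).

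Activation genes of macrophages rose in part, with 7 higher, 1 lower and 9 not past the threshold of 17 tested. The NADPH oxidase subunit Ncf4 went from 2.02 ± 0.506 to 4.84 ± 0.408 CPM. Interleukin 1 beta, Il1b, went from 0.359 ± 0.274 to 1.84 ± 0.579 CPM (2.30 ± 0.44; edgeR adjusted p = 0.00435). Both genes are also expressed by neutrophils, whose summed marker level was 2.29 to 4.13 CPM in WT and 26.6 to 112 CPM in KI libraries, with Ly6g at 0 counts in all 10. That sum covers 8 genes, S100a8 and S100a9 among them, and 4 were below the filter, so it may not report on neutrophils alone. The part of neutrophils in these differences was not tested. Retnla, a product of interleukin 4 activated macrophages that fat tissue also expresses, fell from 41.7 ± 15.3 to 11.5 ± 5.38 CPM (-1.85 ± 0.40; adjusted p = 0.00816). Adipocyte markers fell in 5 of 10 in the same libraries, and their part was not tested either.

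Of 10 myeloid transcription factors 4 rose and none fell. Spi1 (PU.1), which macrophages and dendritic cells require, went from 6.18 ± 1.08 to 10.1 ± 1.68 CPM (0.70 ± 0.16; edgeR adjusted p = 0.00941). Cebpb went from 70.5 ± 8.91 to 159.9 ± 27.6 CPM (1.18 ± 0.13; adjusted p = 3.14e-04) and Cebpa from 183 ± 19.99 to 252 ± 21.4 CPM, and keratinocytes express both as well. Irf5 went from 17.6 ± 2.64 to 23.6 ± 3.32 CPM. Over all 7 of these related lists, 35 of 109 tested genes were higher and 11 lower, which is 32.1% higher against 15.6% of all genes. The lists were chosen with earlier results of these data known, so this comparison is not a test.

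**Figure D3:**
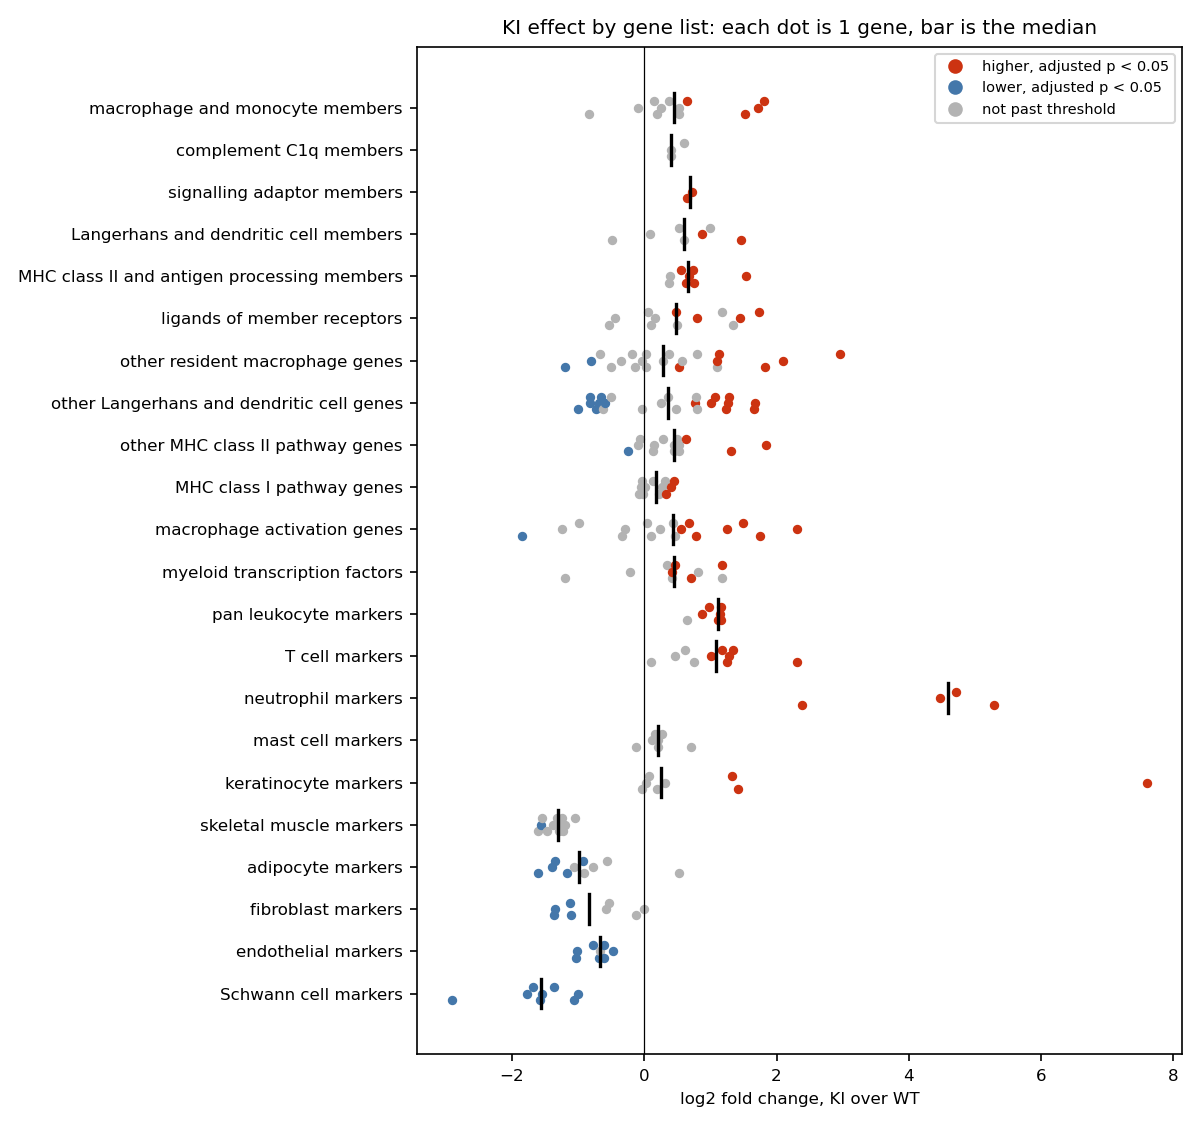
Log2 fold change of KI over WT for every tested gene of the 5 sets of the 32 genes, the 7 related pathway lists and 10 cell type marker lists (the B cell list had no gene past the filter); each dot is 1 gene, red if higher and blue if lower past the threshold, and the bar is the list's median. The class II bar is at 0.65, the pan leukocyte bar at 1.12, the neutrophil bar at 4.59 and the Schwann cell bar at -1.56.

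Pan leukocyte markers had a higher median than the 32 genes. For the 7 markers, led by Ptprc (CD45), the median log2 fold change was 1.12, against 0.58, with a summed level of 57.8 to 96.2 CPM in WT and 133 to 191 CPM in KI libraries. T cell markers had a median of 1.09 and a summed level of 25.3 to 44.1 CPM in WT and 61.6 to 80.9 CPM in KI libraries, although Cd3e itself did not pass (2.97 ± 1.36 and 4.59 ± 0.853 CPM; edgeR adjusted p = 0.121). B cell markers were all below the filter, at summed levels of 0.530 to 0.953 CPM in WT and 1.09 to 3.29 CPM in KI libraries. The mean log2 CPM of the 7 pan leukocyte markers was 3.11 ± 0.27 in WT and 4.13 ± 0.26 in KI libraries (SD, n = 5 each).

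Set against that pan leukocyte level within each library, 26 of the 32 genes had a lower mean in KI and 6 a higher one (Fcgr1, Ccr2, Cx3cr1, Itgax, Ccr7 and Ctss). For 7 genes all KI libraries were lower than all WT libraries (Csf1r, Lyz2, Tyrobp, Clec9a, H2-DMa, H2-DMb1 and Cd74), and only Ctss was higher in all. Among all genes with counts in every library 63.4% were lower and 0.582% higher in this way, since the reference itself rose by 1.01. Ctss was 1.11 ± 0.25 above the pan leukocyte level in WT and 1.63 ± 0.18 above it in KI on the log2 scale. Csf1r went from 2.52 ± 0.17 to 1.77 ± 0.17 above it. Per unit of Csf1r, Ccr2 was higher in every KI library, with a TPM ratio of 0.130 to 0.222 in WT and 0.316 to 0.733 in KI libraries. The ratio of Cx3cr1 to Csf1r overlapped, at 0.0193 to 0.0786 in WT and 0.0668 to 0.134 in KI libraries.

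**Figure D4:**
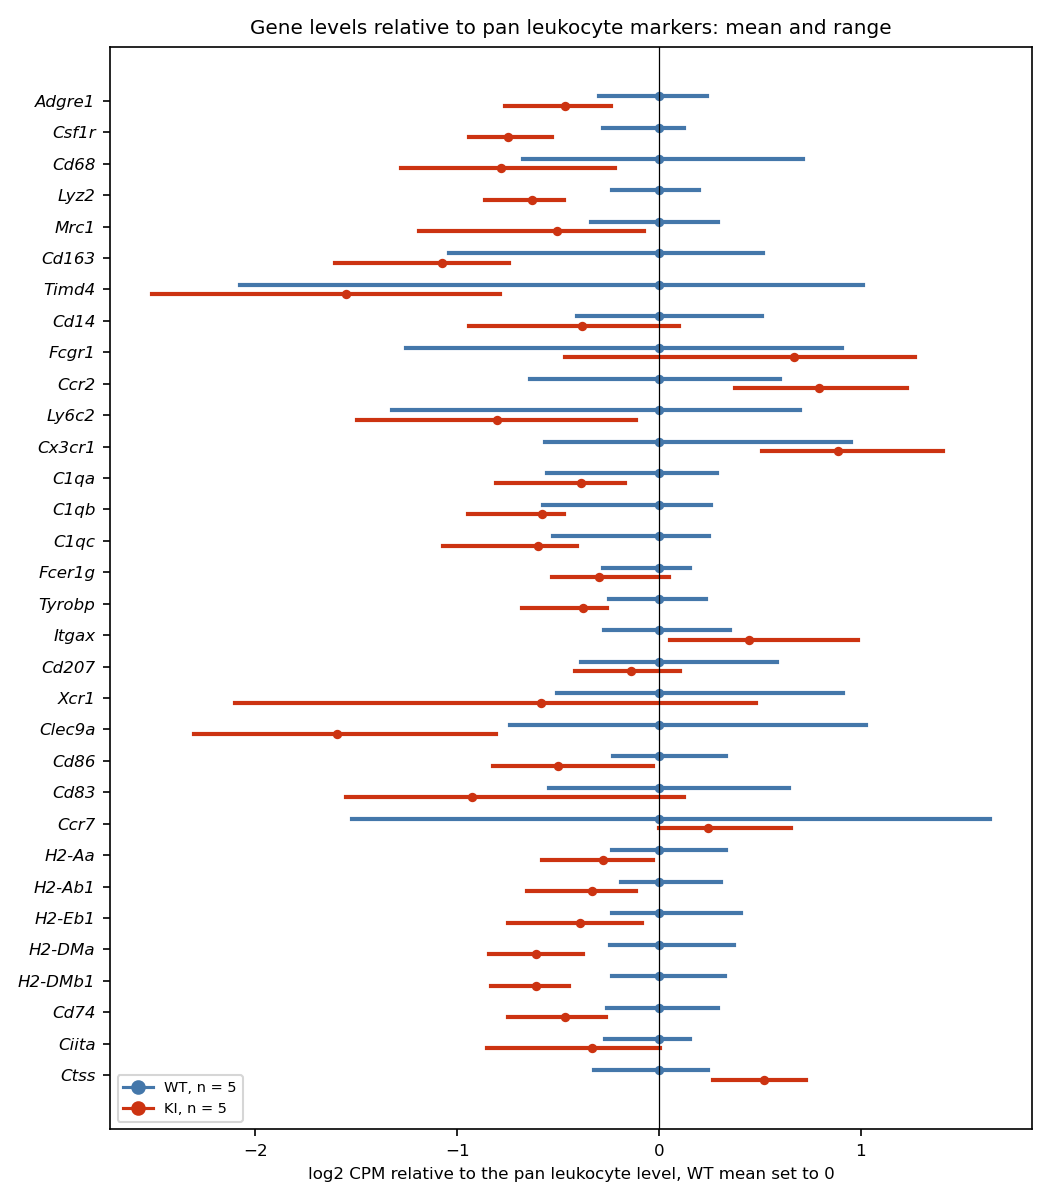
Log2 CPM of each of the 32 genes minus the mean log2 CPM of 7 pan leukocyte markers in the same library, shifted so that the WT mean is 0, with dots at the group means and lines over the range of 5 WT (blue) or 5 KI (red) libraries. KI means lie left of 0 for 26 genes, and the KI line of Ctss lies wholly to the right of the WT line.

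The 14 genes that rose were above 0 with each title prefix alone. They were picked by the fit that holds both prefixes, so this is not an independent test. With EAS37 alone (3 WT, 2 KI) 5 of the 32 genes passed (Cx3cr1, Fcer1g, Itgax, Cd207 and Ctss; 15% of all genes were higher), and with EAS42 alone (2 WT, 3 KI) 8 did (Ccr2, Tyrobp, Itgax, H2-Aa, H2-Ab1, H2-Eb1, Cd74 and Ctss; 6.68% of all genes). Itgax and Ctss passed with each. The difference between the prefixes was itself tested as an interaction, and 0 of the 32 genes passed, against 0.866% of all genes. At an unadjusted p under 0.05 there were 2, 1 in each direction, with edgeR and with limma-voom alike. Over all genes, the edgeR interaction was above 0 for 9.01% and below 0 for 8.69% at that threshold. Cx3cr1 had a log2 fold change of 2.56 with EAS37 and 1.11 with EAS42 (difference -1.41 ± 0.47; edgeR adjusted p = 0.164). Ly6c2 had -0.69 with EAS37 and 0.9985 with EAS42 (difference 1.72 ± 0.61; adjusted p = 0.186).

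Some libraries carried more of these differences than others. WT 2 was the lowest WT library for 8 of the 12 macrophage and monocyte genes, and KI 4 the highest KI library for 7 of them. Of the 14 genes that rose, 9 still passed without KI 4 and 9 without WT 5, and in each case Cd14, Fcgr1, Tyrobp, H2-Eb1 and Ciita did not. The number that passed in each of the 10 fits that left out 1 library was 8, and Cd14, Fcgr1, Tyrobp, H2-Eb1, Cd74 and Ciita were the others. KI 2 had the lowest skeletal muscle level of all libraries, with a mean log2(CPM + 1) of 7.45 for 12 muscle markers against 9.21 to 11.7 in the other 9, and high values of Ccr2, Cx3cr1 and Mrc1. Without WT 2 and KI 2, an alternative added after the data were seen, 8 of the 32 genes passed and 10.3% of all genes were higher. With the skeletal muscle level as a covariate 2 of the 32 passed, and 1.73% of all genes were higher. All 14 fold changes stayed above 0, and the SE was larger for all 14. The fitted value was larger for 7 of the 14 (H2-Aa 0.91, H2-Ab1 0.83, H2-Eb1 0.82, Cd74 0.70, Ciita 0.85, Cd207 1.04 and Itgax 1.77) and smaller for 7 (Ccr2 1.07, Cx3cr1 1.36, Fcgr1 0.88, Cd14 0.39, Fcer1g 0.35, Tyrobp 0.37 and Ctss 1.11). How far the muscle share of each skin sample moves with these genes was not tested beyond this model.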

How the data were processed

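Skin RNA of 5 WT and 5 KI mice, 1 library per mouse by the series' design text, was prepared by Illumina's Stranded mRNA protocol, per the labels' protocols. The build GRCm38 and the tools STAR 2.5.2b, featureCounts and DESeq2 1.14.1, with FastQC and Picard 2.8.1, are listed without roles, per the submitters' processing notes. Expected counts and TPM were deposited by the authors in tables with RSEM's columns, per the file headers. The annotation used, the strand setting and RSEM's version are not stated. The authors' expected counts (10.4% to 12.2% of values fractional) were rounded. FPKM was not used, and deposited effective lengths entered an alternative only. Symbols and GRCm38 coordinates came from GENCODE, which matched 55141 of 55487 identifiers. The other 346 held 0.0507% of counts.

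The 32 genes and all lists were chosen with earlier results of these data known. Genotype came from the labels, and replicate numbers, given in accession order, pair nothing. Genes passing edgeR's filterByExpr (minimum count 10, minimum total 15; 17321 genes) were tested with edgeR 4.0.16 in R 4.3.3 (quasi-likelihood test, robust, TMM), adjusted by Benjamini-Hochberg over all of them, at 0.05. CPM uses TMM library sizes, and ± after a log2 fold change is its SE. Differences between prefixes came from an interaction term. The 3 genes of each direction with the smallest p had an exact permutation test (no member fell). Lists are described by counts and medians, without a set test. TPM ratios were computed for chosen pairs of genes, most of which overlapped between the groups and not all of which are printed. No share over all pairs was computed.

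Library values are given for genes past the threshold and for up to 2 others per set. Up to 4 genes per pathway list (7 lists, 118 genes, 9 of them below the filter) with the smallest p are named, except 1 gene that is not reported here. Cell type markers form 11 lists. Alternatives were DESeq2 1.42.0, limma-voom (limma 3.58.1), 2 other normalizations, no filter or a minimum count of 50, length offsets, a non-robust fit, the prefix as a block, the mean log2(CPM + 1) of 12 muscle markers as covariate, each prefix alone, each library left out, and WT 2 with KI 2 left out. On simulated counts with the real means of 17321 genes, recovery was 29.9% of 67 genes at a fold of 1.5. It was 74.6% of 67 at 2 and 98.5% of 66 at 4. All these genes had a mean of at least 50 counts, and there were 6 false calls (4.26% of calls). Only these genes were changed and each gene was drawn independently, while 30.9% of all genes passed in the data. The rates in the data may therefore differ.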

Additional observations from a re-analysis of the deposited data

Results flagged for a closer look

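Cd207 in WT 4 stood far from the rest of its group, at 12.5 CPM against 7.70 CPM in the nearest WT library, a gap of 0.853 of the group's range, where 0.71 is the limit for 5 samples. It was the single such library among 64 groups of 5 (32 genes in each genotype), and chance gives about 1 in 20. Leaving WT 4 out kept the Cd207 call.

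The KI effect on Ly6c2 went opposite ways with the title prefixes. With EAS37, KI libraries held 0.809 to 0.858 CPM and WT libraries 1.22 to 1.56 CPM. With EAS42, KI libraries held 1.18 to 1.93 CPM and WT libraries 0.413 to 1.06 CPM. The log2 difference between both effects was 1.72 ± 0.61 and did not pass as an interaction in edgeR (adjusted p = 0.186), and Ly6c2 rested on 130 WT and 133 KI counts in all.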

How the results depend on the processing

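No paired analysis was possible because the labels pair no libraries and replicates are numbered by accession. The 14 genes higher in KI became 2 with the muscle level in the model (log2 fold changes 0.35 to 1.77 for the 14, with 7 larger and 7 smaller than as fitted), 5 with EAS37 alone, 8 with EAS42 alone and 8 without WT 2 and KI 2 (added after the data were seen), and 9 to 14 when any 1 library was left out, with 9 both without KI 4 and without WT 5. Over all genes the share higher went from 15.6% to 1.73% with the muscle level and 15% with EAS37 alone. It was 6.68% with EAS42 alone and 10.3% without WT 2 and KI 2. With the prefix as a block 15 of the 32 were higher, against 18.9% of all genes. No alternative called any of the 32 lower or different between prefixes. Pathway genes higher in KI went from 35 to 4 with the muscle level, 22 with EAS37 alone, 22 with EAS42 alone and 28 to 39 with 1 library left out. Those lower went from 11 to 0, 6 and 6, and to 7 to 13 with 1 library left out, with 7 without KI 1. Over all genes the share lower went from 15.3% to 0.831% with the muscle level, 13.4% with EAS37 alone and 7.26% with EAS42 alone. Each prefix alone has 5 libraries, and for the other changes the cause was not tested. Of 321 refits of the 14 genes 258 kept the call, 63 lost it and none changed sign. The refits reuse the libraries that picked the 14 genes, so they are not independent tests. Signs turned for 5 genes that never passed as fitted. With the muscle level, Cd68 was at -0.12 and Mrc1 at -0.16. Cd163 was at 0.32 with EAS42 alone, 0.057 with the prefix as a block and -0.28 to 0.045 with 1 library left out, above 0 without WT 1, WT 3 or KI 5. Ly6c2 was at -0.69 with EAS37 alone and -0.056 to 0.31 with 1 library left out, below 0 without WT 5 or KI 5. Cd83 was at -0.60 with EAS37 alone, -0.10 with the block and -0.18 to 0.38 with 1 library left out, below 0 without WT 1, WT 2, KI 3 or KI 4. Xcr1, Ccr7, Timd4, Clec9a, Ly6c2 and Fcgr1 had under 450 counts each over all libraries, and recovery was not tested at that depth.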
